A study of Arabidopsis thaliana with 24 samples.

Results

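Transcript levels were compared between leaves labelled as the Arabidopsis thaliana ecotype Rodasen-47 (Sweden, SW) grown in strong light and cool air and leaves with the same ecotype label grown in dim light and warm air. The members are the 3 libraries whose titles give High light, cool (SW_HLC) and the 3 whose titles give Low light, warm (SW_LLW), 6 of the 24 libraries of the study, and the comparison ran over all genes. SW_HLC plants received 1000 µmol photons per square metre and second at leaf temperatures of 14 °C by day and 12.5 °C by night, and SW_LLW plants received 100 µmol at 25 °C and 20 °C. Light and temperature therefore changed together, and their shares in a difference cannot be told apart here. Per the labels, both groups were unmodified plants of 1 seed sub-line in the vegetative state, in 9 h photoperiods. For each library, 2 discs of 0.73 square cm were frozen from the youngest full-grown leaf when the 15 h night ended, and RNA was depleted of ribosomal RNA. The study also grew Castelnuovo-12 (Italy, IT) and crossed both light levels with both temperatures. The labels call the samples biological replicates without saying whether they were separate plants, so a p-value covers no more than the spread among these libraries.

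Total counts in the 6 libraries ran from 13119998 to 15834550. Transcripts of the plastid genome took 54.84% to 59.60% of the counts in SW_HLC and 57.55% to 62.58% in SW_LLW. Among the genes that varied most across these 6 libraries, the first principal component held 87.9% of the variance and separated the regimes. That choice of genes favours such a separation, so the percentage does not describe all genes. In the fit of all 24 libraries, biological variation between replicates had a median coefficient of 0.165. The lowest entry in the table is 1 for every gene and library, so a gene at that minimum may have had no read; 1 count corresponded to about 0.06 CPM (read counts scaled to library size). Levels below are CPM after TMM scaling, given for replicates 1, 2 and 3 in that order, and each adjusted p comes from edgeR's quasi-likelihood test with Benjamini-Hochberg adjustment over 17709 genes.

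The labels and a set of on-or-off transcripts did not go together across the study, and this touches every value below. QQS, an orphan gene linked to starch content, read 17.1, 16.2 and 20.2 CPM in the libraries labelled SW_LLW and was at the table minimum in the 3 labelled SW_HLC, at least 99.2-fold lower. The immune receptor genes CSA1 and DAR4 did the reverse: DAR4 was at the minimum in SW_LLW and read 19.9, 20.0 and 24.1 CPM in SW_HLC, at least 114-fold higher, and CSA1 rose at least 58.8-fold. The libraries labelled IT_LLW carried the SW_HLC pattern, with 26.6 to 32.1 CPM of DAR4, 14.1 to 16.5 CPM of CSA1 and QQS between 0.0662 and 0.145 CPM. Libraries labelled IT_HLC had QQS on, at 3.60 to 8.62 CPM, and CSA1 ran there from 0.0436 to 5.05 CPM; replicate 3 of that group had both genes on. Counts that rest on IT_HLC are given with and without it. Group names below stand for the labels: whether each group holds the ecotype of its label was not tested. Within SW_HLC against SW_LLW, the regime and this transcript pattern cannot be told apart. Results are therefore given beside those of SW_HLC against IT_LLW, in which both groups carry the same pattern but the ecotype label differs; both comparisons use the same SW_HLC libraries and are not independent. The remaining comparison, IT_HLC against IT_LLW, shares no library with the main one.

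The tissue label was checked against markers. Summed CPM of 5 leaf mesophyll markers ran from 13600 to 16100 in SW_HLC and from 14900 to 15300 in SW_LLW, and 0 of the 5 were called. That count depended on the fit. With the 6 libraries fitted alone, CA1 (log2 change 0.69), GAPB (0.57) and LHCB1.3 (-0.48) were called (adjusted p = 0.0137, 0.0162 and 0.0152). Summed flower markers stayed below 0.5 CPM, as did summed seed and root markers, and none of these genes was abundant enough to be tested. All 3 seed markers were at the table minimum in every library of both groups, as were 4 of 5 flower markers in SW_HLC and all 5 in SW_LLW, and 5 of 5 root markers in SW_HLC and 4 in SW_LLW. Marker lists of other leaf cell types are read against the shares over all genes, 24.8% higher and 25.5% lower. Of 8 tested xylem markers 5 fell (3 without SW_HLC replicate 3, 2 without SW_LLW replicate 3), and their sum was 3.81 to 5.11 CPM in SW_HLC and 6.72 to 17 CPM in SW_LLW. Of 6 tested epidermis markers 4 rose, with a sum of 431 to 561 against 258 to 339 CPM. Leaving out 1 library gave 3 to 4 higher, and against IT_LLW 2 rose and 0 fell. Among 9 phloem markers 2 rose and 1 fell, with sums of 160 to 229 and 140 to 157 CPM; without SW_HLC replicate 2 none was called, the other leave-outs gave 1 to 2 higher and 0 to 1 lower, and against IT_LLW 0 rose and 5 fell. Among 7 guard cell markers 2 rose and 2 fell, with overlapping sums of 16.1 to 18.1 and 16.1 to 20.2 CPM. The phloem and guard cell counts stood near or below the shares of all genes. In whole leaf discs, fewer cells of a type and less RNA per cell cannot be told apart, and the part of cell composition in the results below was not tested.

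Plants held in the cold switch on CBF transcription factors, which bind a short promoter element called CRT/DRE and raise COR genes, whose products protect membranes and proteins against freezing. A leaf in strong light makes more sugar than it exports and stores the surplus as starch, which is broken down at night on a timetable set by the circadian clock. The clock's evening genes carry an evening element, and genes for phosphate scarcity carry an element called P1BS, bound by the factor PHR1.

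The following sequences show these elements in genes whose changes are described below. Each is the stretch of 250 bases before the annotated gene start on the gene's own strand, 5′ to 3′, from the RefSeq genome and annotation of assembly TAIR10.1, which is the Columbia reference and not the sequence of Rodasen-47. RD29A and COR15A are cold genes, with CRT/DRE matches (ACCGAC or GCCGAC, both strands) in capitals. RD29A lies on chromosome 5, plus strand, and COR15A on chromosome 2, minus strand.
RD29A: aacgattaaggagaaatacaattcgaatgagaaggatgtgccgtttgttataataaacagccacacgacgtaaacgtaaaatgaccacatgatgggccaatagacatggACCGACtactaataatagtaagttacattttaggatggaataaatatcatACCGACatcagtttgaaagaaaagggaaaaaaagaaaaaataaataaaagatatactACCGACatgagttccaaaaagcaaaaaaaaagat
COR15A: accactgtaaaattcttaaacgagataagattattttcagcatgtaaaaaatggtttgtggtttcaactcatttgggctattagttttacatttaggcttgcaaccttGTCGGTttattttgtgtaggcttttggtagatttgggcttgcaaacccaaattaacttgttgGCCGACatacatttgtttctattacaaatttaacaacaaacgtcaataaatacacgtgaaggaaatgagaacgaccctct
TOC1 (chromosome 5, plus strand) and FKF1 (chromosome 1, plus strand) are evening clock genes, with the evening element (AAAATATCT, both strands) in capitals.
TOC1: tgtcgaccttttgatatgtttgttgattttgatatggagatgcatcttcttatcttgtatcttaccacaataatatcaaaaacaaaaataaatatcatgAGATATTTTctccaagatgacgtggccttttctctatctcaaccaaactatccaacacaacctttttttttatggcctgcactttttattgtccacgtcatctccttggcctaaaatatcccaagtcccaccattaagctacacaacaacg
FKF1: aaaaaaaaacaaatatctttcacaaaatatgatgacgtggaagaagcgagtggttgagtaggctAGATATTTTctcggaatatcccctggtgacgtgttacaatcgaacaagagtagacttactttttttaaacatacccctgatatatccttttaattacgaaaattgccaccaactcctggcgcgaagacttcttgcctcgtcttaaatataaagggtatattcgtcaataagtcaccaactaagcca
GDPD1 (chromosome 3, minus strand) and SPX3 (chromosome 2, plus strand) are phosphate genes, with P1BS (GNATATNC, which reads the same on both strands) in capitals.
GDPD1: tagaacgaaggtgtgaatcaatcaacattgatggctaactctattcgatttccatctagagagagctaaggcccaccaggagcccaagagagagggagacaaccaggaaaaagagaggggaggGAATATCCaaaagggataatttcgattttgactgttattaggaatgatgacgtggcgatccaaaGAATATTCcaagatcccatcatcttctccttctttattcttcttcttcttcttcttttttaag
SPX3: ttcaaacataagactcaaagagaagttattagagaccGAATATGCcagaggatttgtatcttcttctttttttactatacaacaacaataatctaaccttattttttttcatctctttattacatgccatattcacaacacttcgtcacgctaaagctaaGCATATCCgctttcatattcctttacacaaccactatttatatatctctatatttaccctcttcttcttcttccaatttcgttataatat
RD29A held 3 CRT/DRE matches and COR15A held 2, while GDPD1 and SPX3 held 2 P1BS matches each. These genes were picked for their matches, and a match is a description of letters, not of binding. Of all 16829 tested protein-coding genes, 8.0% held CRT/DRE in this window. It stood in 5 of 20 cold effector genes, 3 of 11 evening clock genes and 2 of 26 tested phosphate genes. The evening element stood in 2.6% of all promoters, in 4 of 11 evening clock genes, 3 of 20 cold effector genes and 0 of 26 phosphate genes. P1BS stood in 5.5% of all promoters, in 8 of 26 tested phosphate genes, 2 of 20 cold effector genes and 1 of 11 evening clock genes. CRT/DRE and the evening element were thus not particular to 1 list. The G-box (CACGTG) stood in 7.4% of all promoters. Among genes called higher in SW_HLC, 9.0% held CRT/DRE, 4.3% the evening element, 6.8% P1BS and 8.2% the G-box. Among genes called lower the shares were 7.0%, 1.8%, 5.5% and 6.5%.

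Genes that differed between the regimes were many. At an adjusted p below 0.05, 4388 genes (24.8%) were higher in SW_HLC and 4524 (25.5%) were lower, 8912 (50.3%) in all. The median log2 change over all genes was -0.02, which TMM scaling holds near 0; with upper-quartile scaling it was -0.109 and the counts were 3860 higher and 5104 lower. Of those called, 2343 higher and 2429 lower genes changed by at least 1 on the log2 scale, and 301 and 270 by at least 4. The 3 SW_HLC values did not overlap with the 3 SW_LLW values in 11091 genes (62.6%), with SW_HLC higher in 30.7% of those tested and lower in 32%. Against IT_LLW, 4259 genes (24%) were higher in SW_HLC and 3941 (22.3%) lower, 46.3% in all. A member list is read below against these shares: a list with shares near these stands at the background.

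**Figure D1:**
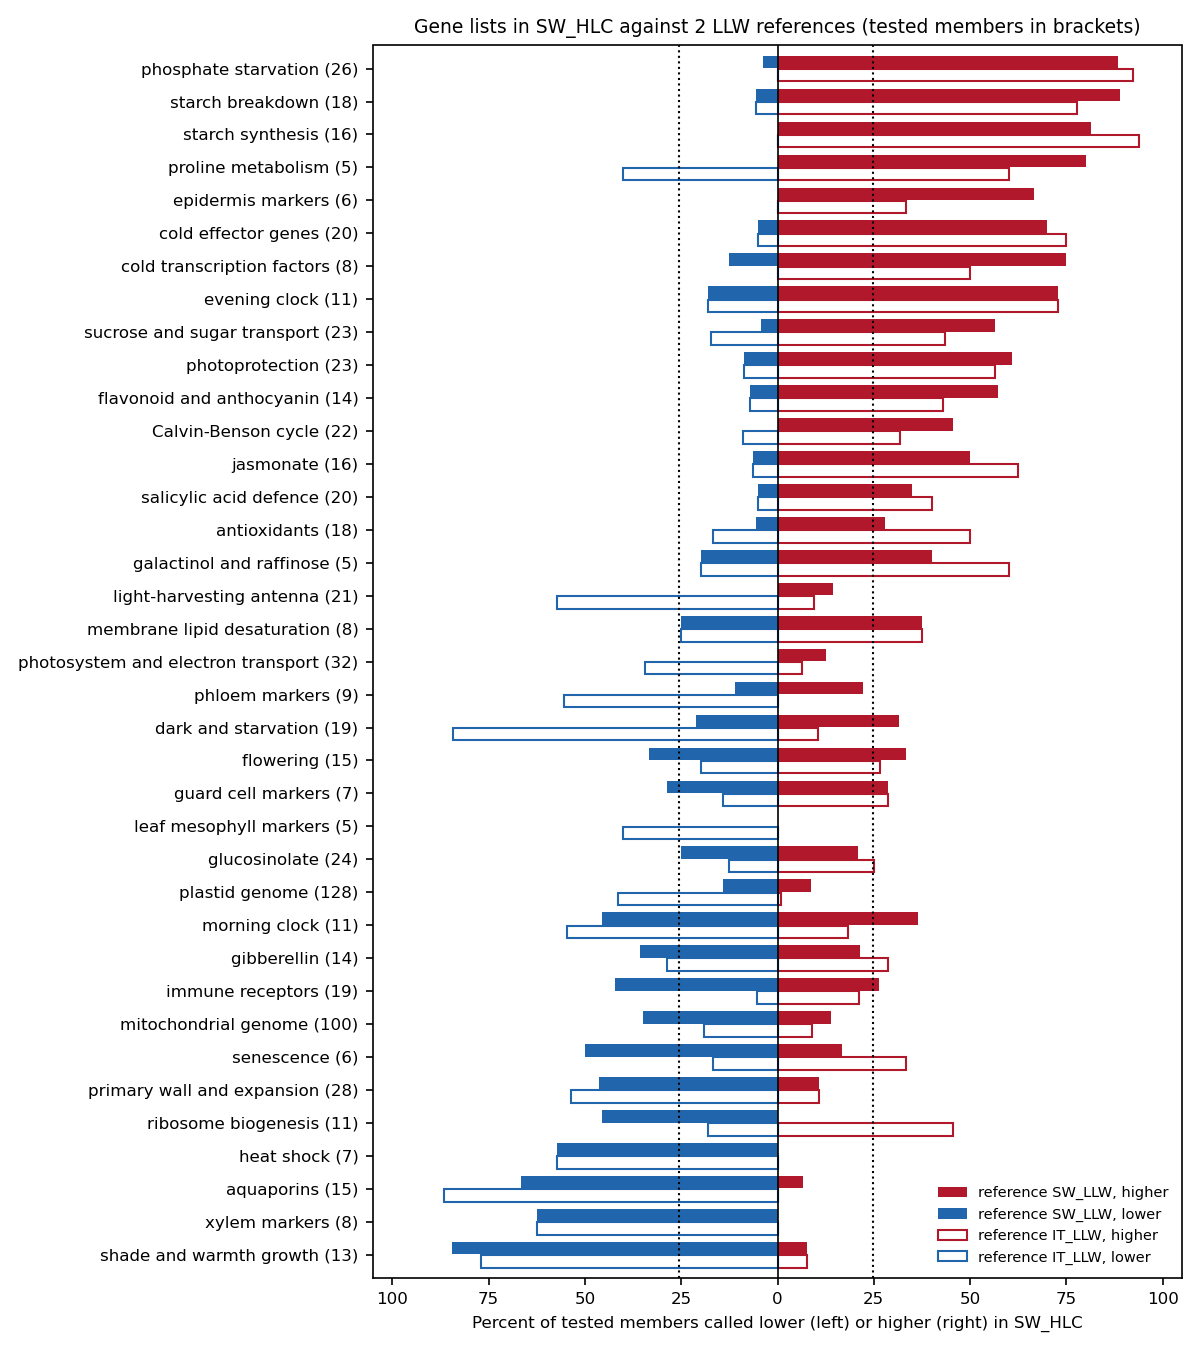
Percent of tested members of each gene list called lower (left) or higher (right) in SW_HLC, against SW_LLW (filled bars) and IT_LLW (open bars), with dotted lines at the shares over all genes tested, 24.8% higher and 25.5% lower. Starch, cold, evening clock and phosphate lists extend to the right and shade and aquaporin lists to the left under both references, while the antenna, photosystem and dark lists have much longer bars to the left against IT_LLW than against SW_LLW.

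The largest changes were ranked only among called nuclear genes with a symbol and a mean log2 CPM of at least 3. The groups also had to be without overlap, so the separation of the ranked genes was set by their choice. Some genes of lower mean level, such as PS2 described below, rose more. The 12 ranked genes of largest rise included proteins of endoplasmic reticulum bodies, cold genes, a beta-amylase and genes known from nutrient scarcity. MBP1, a myrosinase-binding protein, rose from 0.380, 0.573 and 1.62 to 428, 189 and 474 CPM, a log2 change of 8.70 ± 1.34 (approximate SE; adjusted p = 2.69e-05) that was 9.55 without SW_LLW replicate 3. BGLU18, a beta-glucosidase of endoplasmic reticulum bodies that frees abscisic acid from its glucose ester, rose from 3.42, 7.51 and 8.94 to 1870, 845 and 2190 CPM (7.94 ± 1.31; adjusted p = 5.64e-05). TSA1, a protein of the same kind of bodies, rose from 1.71, 1.91 and 3.42 to 294, 153 and 369 CPM (6.85 ± 1.14; adjusted p = 6.45e-05). In each of the 3, SW_HLC replicate 2 was the lowest of its group. IT_LLW held 20.7 to 51.3 CPM of MBP1, 59.9 to 164 CPM of BGLU18 and 11.8 to 36.9 CPM of TSA1, and against it the log2 changes were 3.32, 3.97 and 3.52 (adjusted p = 0.0101, 0.00544 and 0.00519).

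PDC2, a pyruvate decarboxylase of fermentation, rose from 0.507, 1.27 and 1.38 to 182, 144 and 206 CPM, a log2 change of 7.38 ± 0.56 (adjusted p = 5.18e-09). HPL1, a hydroperoxide lyase that makes leaf aldehydes, rose from 0.888, 1.4 and 0.600 to 63.5, 53.7 and 102 CPM (6.24 ± 1.06; adjusted p = 7.79e-05). ATSDI1, named for its induction by sulphur deficiency, rose from 2.16, 1.78 and 1.26 to 159, 123 and 80.9 CPM (6.12 ± 0.92; adjusted p = 2.12e-05). A lack of overlap between the groups was a condition for the choice of these genes. The value for PDC2 hardly depended on the reference, at 7.22 against IT_LLW, whereas HPL1 and ATSDI1 rose by 3.54 and 3.69 there.

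Under the same rule, the 12 ranked genes of largest fall included a vacuolar water channel, a fatty acid elongation enzyme, growth-linked genes and an amino acid permease. Over all genes tested, 495 were called lower by at least 3 on the log2 scale. TIP2;1, a water and ammonia channel of the vacuole, fell from 184, 126 and 259 to 3.08, 4.12 and 4.36 CPM, a log2 change of -5.62 ± 0.53 (adjusted p = 7.36e-08). GASA6, a gibberellin-regulated peptide, fell from 273, 320 and 258 to 5.86, 9.40 and 5.99 CPM (-5.32 ± 0.62; adjusted p = 1.06e-06). KCS12, a fatty acid elongation enzyme, fell from 59.1, 63.1 and 50.2 to 1.97, 1.35 and 1.94 CPM (-5.03 ± 0.45; adjusted p = 3.32e-08). The lack of overlap between the groups followed from the rule of choice. EBP, an ethylene-response transcription factor, fell from 374, 381 and 337 to 15.7, 11.6 and 7.44 CPM (-4.97 ± 0.44; adjusted p = 3.22e-08). AAP4, an amino acid permease, fell from 73.0, 56.8 and 56.2 to 4.24, 7.68 and 5.08 CPM (-3.45 ± 0.51; adjusted p = 1.52e-05). Against IT_LLW these 5 genes fell as well, by 6.94, 6.10, 6.28, 3.69 and 3.43 in the same order. BME3, a GATA factor known from seed germination, and ARL, an ARGOS-like gene that promotes organ size, fell by 3.25 and 3.09, and by 3.08 and 3.18 against IT_LLW. A pair of the 12 ranked falls was not called with the other reference. CYP705A19, a cytochrome P450, fell from 40.4, 43.8 and 40.4 to 2.67, 2.46 and 1.39 CPM (-4.25 ± 0.42), but IT_LLW held only 1.37 to 1.65 CPM and the change was 0.54 (adjusted p = 0.388). The immune receptor gene RPP5 fell by 3.12 ± 0.19 (adjusted p = 1.28e-10), and the value against IT_LLW was -0.24 (adjusted p = 0.287).

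Some of the most counted nuclear transcripts also changed. Glycine decarboxylase GLDP1 and serine hydroxymethyltransferase SHM1, enzymes of photorespiration, rose. GLDP1 went from 525, 466 and 376 to 1290, 1650 and 1320 CPM (log2 change 1.64 ± 0.18; adjusted p = 3.65e-07). SHM1 went from 608, 654 and 443 to 1300, 1580 and 1370 CPM (1.31 ± 0.20; adjusted p = 2.42e-05). CLPC1, a chloroplast protein-import and protease chaperone, rose by 1.28 ± 0.13 (adjusted p = 2.30e-07). Among the most counted genes that fell, the cytosolic chaperone HSC70-1 went from 1070, 938 and 939 to 439, 560 and 463 CPM (-1.01 ± 0.16; adjusted p = 2.70e-05). The carbonic anhydrase CA2 went from 619, 667 and 579 to 221, 275 and 296 CPM (-1.24 ± 0.41; adjusted p = 0.0181), a call lost without SW_HLC replicate 1 (-1.12). The metallothionein MT3 and the photorespiratory aminotransferase GGT1 fell by 1.06 and 0.56.

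Cold-regulated genes rose. Of 20 tested cold effector genes 14 were higher and 1 lower, with a median log2 change of 2.89 beside -0.02 over all genes; against IT_LLW 15 were higher and 1 lower (median 3.05). COR15A, a chloroplast protein that shields membranes during freezing, rose from 1.71, 1.46 and 2.1 to 156, 384 and 212 CPM, a log2 change of 7.14 ± 0.57 (adjusted p = 9.97e-09). Its near-identical neighbour COR15B rose by 6.47 ± 0.44, and reads may be split between them. RD29A, a hydrophilic stress protein, rose from 3.23, 2.04 and 3.18 to 167, 335 and 228 CPM (6.43 ± 0.61; adjusted p = 7.92e-08). SW_HLC replicate 2 was the highest in these genes and replicate 1 the lowest, and no SW_LLW library reached 4 CPM. The dehydrin LTI30 rose by 5.80 ± 0.53 and the membrane protein COR413-PM1 by 3.14 ± 0.25 (adjusted p = 5.98e-08 and 8.31e-09). GRP7, an RNA-binding protein that is both cold- and clock-regulated, rose from 10.8, 7.44 and 10.3 to 190, 210 and 205 CPM (4.41 ± 0.58; adjusted p = 4.46e-06), and by 6.30 against IT_LLW, whose level was 1.99 to 2.96 CPM. The single cold effector that fell was CSP2, a nucleic-acid chaperone, from 12, 9.48 and 11.4 to 7.31, 5.41 and 8.53 CPM (-0.63; adjusted p = 0.0474), a call that ended without SW_HLC replicate 1, 2 or SW_LLW replicate 1 or 3, without IT_HLC replicate 3, with RLE scaling, with DESeq2, with no filter on low counts, without organelle genes and with the LLW and HLC libraries fitted alone.

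Most of the regulators stood higher too, the CBF genes at low levels. Of 8 cold transcription factors 6 rose and 1 fell (median 1.83), 4 to 5 rose when 1 library was left out, and 4 rose and 0 fell against IT_LLW. CBF3 read 2.15, 3.32 and 1.88 CPM in SW_HLC and 0.0634, 0.191 and 0.120 in SW_LLW (log2 change 4.2 ± 0.59; adjusted p = 7.82e-06). CBF2 read 2.79, 4.05 and 2.54 against 0.571, 0.636 and 0.720 CPM (2.27 ± 0.35; adjusted p = 2.58e-05). CBF1 read 0.580, 0.491 and 0.605 CPM and was at the table minimum in all SW_LLW libraries, at least 2.99-fold higher (adjusted p = 0.000564). The 3 genes are tandem copies and may exchange reads. RAV1, a growth-restraining factor induced by cold, rose from 7.04, 11 and 7.2 to 54, 86.5 and 66.9 CPM (3.04 ± 0.49; adjusted p = 4.66e-05), but IT_LLW held 31.0 to 50.4 CPM of it and the change there was 0.83 (adjusted p = 0.146). ICE1, an activator upstream of the CBF genes, fell from 12, 11.4 and 11 to 7.72, 8.05 and 7.81 CPM (-0.55 ± 0.12; adjusted p = 0.00115), with a value of -0.27 against IT_LLW (adjusted p = 0.0871).

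Other cold-linked metabolism moved gene by gene. Of 8 lipid desaturation genes 3 rose and 2 fell (0 fell without SW_LLW replicate 3, and 1 without SW_HLC replicate 1 or 3 or SW_LLW replicate 1). FAD8, the cold-active plastid desaturase, rose from 4.82, 5.28 and 3.72 to 45.7, 59.1 and 55.7 CPM (log2 change 3.54 ± 0.43; adjusted p = 1.67e-06). ADS2, an acyl-lipid desaturase needed for chilling tolerance, rose by 3.03 ± 0.29 and SFR2, a galactolipid-remodelling enzyme of freezing tolerance, by 1.16 ± 0.19. FAD2, the main desaturase of the endoplasmic reticulum, read lower by 0.66 ± 0.20 (adjusted p = 0.00927), a call lost without SW_LLW replicate 3. GOLS3, a galactinol synthase under CBF control, rose from 0.254, 0.254 and 0.240 to 27.9, 106 and 19.3 CPM (7.63 ± 0.73; adjusted p = 9.39e-08), and by 6.53 without SW_HLC replicate 2. In contrast GOLS1 fell by 1.38 ± 0.25 (adjusted p = 0.000104) and GOLS2 read 65.4, 58.2 and 28.4 against 28.8, 42.4 and 33.7 CPM (0.54; adjusted p = 0.378), though GOLS2 rose by 2.91 against IT_LLW (adjusted p = 0.000195). Over the galactinol and raffinose list 2 of 5 rose and 1 fell. All of 5 proline genes had positive log2 changes and 4 were called (2 without SW_HLC replicate 2); P5CS1, the rate-limiting synthase, rose from 185, 183 and 132 to 410, 458 and 370 CPM (1.31 ± 0.30; adjusted p = 0.00129). P5CR, the last enzyme of proline synthesis, rose by 1.75 ± 0.13 but fell by 0.34 against IT_LLW (adjusted p = 0.0316).

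Evening genes of the circadian clock were raised at the end of the night. Of 11 tested members 8 were higher and 2 lower (median 4.28), with the same counts and a median of 4.07 against IT_LLW. TOC1, the core evening repressor, rose from 2.35, 3.12 and 3.06 to 50.6, 56.0 and 69.3 CPM, a log2 change of 4.36 ± 0.23 (adjusted p = 2.31e-11). FKF1, a blue-light receptor of photoperiodic flowering, rose from 0.380, 0.127 and 0.420 to 27.4, 24.7 and 29.6 CPM (6.41 ± 0.39; adjusted p = 1.47e-10). ELF4, part of the evening complex, read 1.22, 1.29 and 1.57 CPM and was at the minimum in SW_LLW, at least 7.27-fold higher (adjusted p = 2.61e-09). The replicates lay close together in these genes. Their groups did not overlap, as in 62.6% of all genes tested, and a choice by smallest adjusted p favours this. ELF3, another evening complex subunit, rose by 2.42 ± 0.26. Chosen after their values were seen, PRR5 rose from 0.444, 0.445 and 0.780 to 85.6, 77.3 and 114 CPM (7.35 ± 0.94; adjusted p = 3.18e-06) and GI rose by 5.30 ± 0.58. CHE, a repressor of CCA1, fell from 26.2, 25.4 and 34.4 to 9.52, 11.9 and 11.4 CPM (-1.39 ± 0.32; adjusted p = 0.00111).

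Morning genes were split, 4 of 11 higher and 5 lower (median -0.59), and 2 higher and 6 lower against IT_LLW. LHY, the morning repressor, fell from 346, 317 and 311 to 170, 162 and 162 CPM (-0.98 ± 0.13; adjusted p = 3.46e-06). The activators RVE4 and RVE8 fell by 2.26 ± 0.22 and 1.06 ± 0.16 (adjusted p = 7.36e-08 and 1.75e-05). PRR7, a day-phase repressor, rose from 23.5, 19.0 and 19.8 to 79.0, 61.2 and 85.9 CPM (1.86 ± 0.16; adjusted p = 2.10e-08) and by 0.70 against IT_LLW. With 1 time of harvest, a change of level and a change of phase cannot be told apart.

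**Figure D2:**
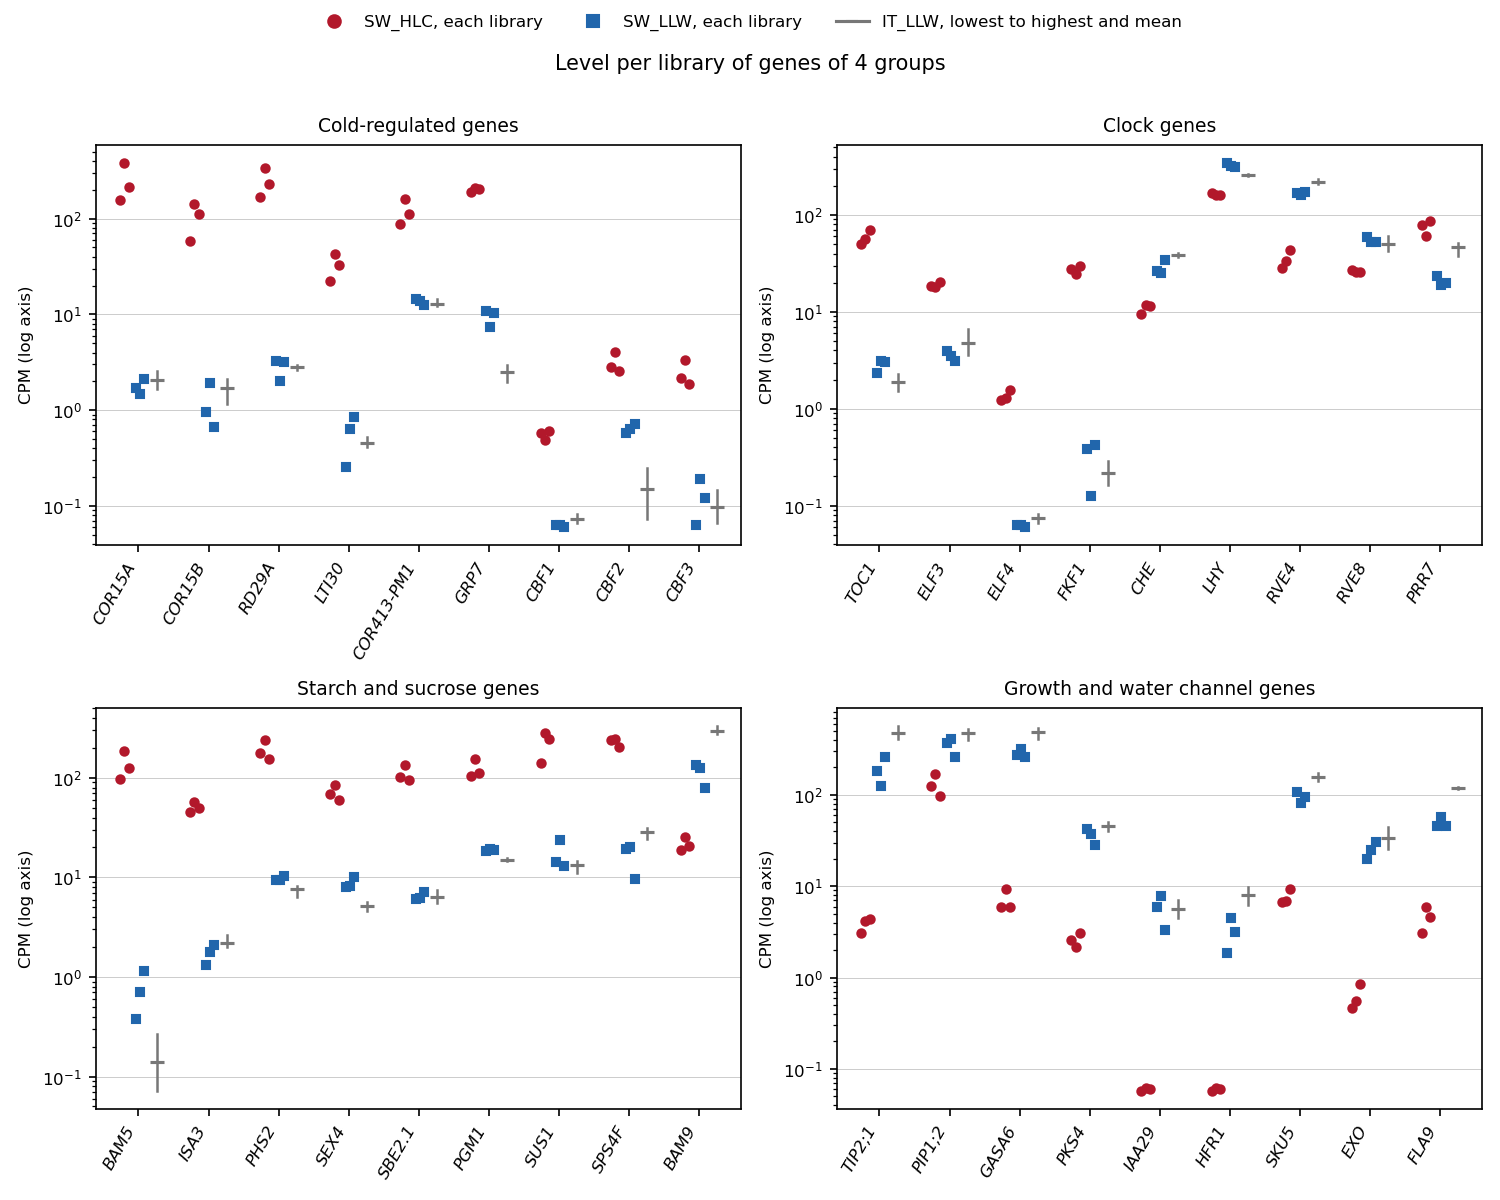
CPM (log axis) of 9 genes in each of 4 groups in every SW_HLC library (circles) and SW_LLW library (squares), with the lowest, mean and highest IT_LLW value (grey line and tick). TOC1 ran from 50.6 to 69.3 CPM in SW_HLC and from 2.35 to 3.12 in SW_LLW, TIP2;1 from 3.08 to 4.36 and from 126 to 259, and the grey lines lie nearer to the squares than to the circles in every gene except PRR7.

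Starch genes rose in both directions of the pathway. Of 16 synthesis genes 13 were higher and 0 lower (median 1.21), and 15 were higher against IT_LLW (median 1.09). SBE2.1, a branching enzyme, rose from 6.09, 6.24 and 7.08 to 102, 136 and 96.0 CPM, a log2 change of 4.1 ± 0.27 (adjusted p = 3.88e-10). PGM1, the plastid phosphoglucomutase without which leaves lack starch, rose from 18.5, 19.2 and 18.8 to 104, 155 and 112 CPM (2.71 ± 0.25; adjusted p = 5.00e-08). ADG1, the small subunit of ADP-glucose pyrophosphorylase, rose by 2.51 ± 0.23 and the synthase SS4, needed to start granules, by 1.80 ± 0.18. In these 4 the groups did not overlap, as in 62.6% of all genes tested, and a choice by smallest adjusted p favours this.

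Of 18 starch breakdown genes 16 rose and 1 fell (median 2.08), and 14 rose and 1 fell against IT_LLW (median 2.11). BAM5, an extraplastidic beta-amylase, rose from 0.380, 0.700 and 1.14 to 96.8, 188 and 127 CPM (7.51 ± 0.87; adjusted p = 1.10e-06). The debranching enzyme ISA3 rose from 1.33, 1.78 and 2.1 to 45.1, 57.1 and 49.5 CPM (4.85 ± 0.29; adjusted p = 1.31e-10). PHS2, a cytosolic glucan phosphorylase, rose from 9.38, 9.42 and 10.3 to 179, 243 and 156 CPM (4.31 ± 0.32; adjusted p = 3.33e-09). The glucan phosphatase SEX4 and the dikinase PWD, which act together on the granule surface, rose by 3.02 ± 0.22 and 2.71 ± 0.20. BAM9, a catalytically inactive member of the beta-amylase family, was the exception and fell from 136, 125 and 79.6 to 18.7, 25.3 and 20.7 CPM (-2.39 ± 0.34; adjusted p = 8.50e-06).

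Of 23 sucrose and sugar transport genes 13 rose and 1 fell (median 0.90); against IT_LLW 10 rose and 4 fell. SPS4F, a sucrose phosphate synthase, rose from 19.3, 20.1 and 9.60 to 240, 247 and 206 CPM (3.82 ± 0.36; adjusted p = 6.71e-08), and SPS1F, the other main leaf form, by 1.70 ± 0.15. SUS1, a sucrose synthase, rose from 14.4, 23.6 and 13.0 to 140, 280 and 247 CPM (3.71 ± 0.31; adjusted p = 1.04e-08). The cytosolic fructose bisphosphatase gene FBP rose by 2.08 ± 0.25. The lower level of the cell wall invertase CWINV1 (-2.24; adjusted p = 0.00866) rested on SW_LLW replicate 2, at 11.4 CPM beside 3.23 and 2.58, and without it the change was -1.26 and not called. SUC2, which loads sucrose into the phloem, read 88.6, 123 and 87.8 against 63.1, 59.6 and 63.8 CPM (0.68; adjusted p = 0.00811), a call lost without SW_HLC replicate 2, but 0.09 against IT_LLW (adjusted p = 0.764).

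Genes of phosphate starvation stood among the largest rises, a list drawn up after their values were seen. Of 32 members 26 passed the filter on low counts, and of those 23 were higher and 1 lower (median 4.77); against IT_LLW 24 were higher and 0 lower (median 4.08). Because the list was chosen on these values, the counts only describe it. PS2, a phosphatase, read 102, 150 and 43.3 CPM in SW_HLC and 0.0634, 0.0636 and 0.120 in SW_LLW, a log2 change of 10.07 ± 1.27 (adjusted p = 2.90e-06). IPS1, a non-coding RNA that sequesters miR399, read 49.2, 134 and 16.8 against 0.0634, 0.191 and 0.0600 CPM (9.21 ± 1.06; adjusted p = 1.01e-06), and the change was 8.21 without SW_HLC replicate 2 and 9.89 without SW_LLW replicate 2. AT4, its relative, read 73.8, 116 and 55.3 against 0.127, 0.0636 and 0.360 CPM (8.71 ± 1.14; 9.63 without SW_LLW replicate 3). SW_HLC replicate 3 was the lowest of its group in all of these and replicate 2 the highest.

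Most uptake and lipid members were called higher too. The phosphate transporter gene PHT1;4 read 22.5, 45.3 and 9.56 CPM in SW_HLC and was at the minimum in SW_LLW, at least 138-fold higher (adjusted p = 3.15e-07; at least 85.8-fold without SW_HLC replicate 2). MGD3, which makes galactolipid in place of phospholipid, read 26.1, 37.6 and 12.3 CPM and was at least 135-fold higher. SQD1 and SQD2, the enzymes of sulpholipid synthesis, rose by 3.31 ± 0.35 and 2.83 ± 0.34, and the phospholipase PLDP2 and the glycerophosphodiesterase GDPD1 by 5.64 ± 0.69 and 5.36 ± 0.99. An exception was MGD2, a galactolipid synthase related to MGD3, at 14.7, 13.3 and 10.2 against 10.5, 9.1 and 10.3 CPM (0.35; adjusted p = 0.383); against IT_LLW it rose by 1.89. SPX1, a sensor protein of phosphate status that restrains PHR1, rose from 2.41, 2.23 and 3.24 to 217, 247 and 98.6 CPM (6.15 ± 0.78; adjusted p = 2.94e-06). The purple acid phosphatase PAP17 rose from 1.58, 2.99 and 2.22 to 124, 161 and 58.4 CPM (5.65 ± 0.75; adjusted p = 4.88e-06), and PAP22 and the kinase gene PPCK2 were at least 53.2-fold and 27.9-fold higher.

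The regulators of the pathway were divided. Beside SPX1 and IPS1, the SPX1 relatives SPX2 and SPX3 rose by 2.65 ± 0.32 and 5.05 ± 0.68. PHR1 read 40.2, 41.5 and 45.8 against 34.6, 32.8 and 33.4 CPM (0.34 ± 0.09; adjusted p = 0.00466), and 0.20 higher against IT_LLW (adjusted p = 0.0812). PHO2, a ubiquitin-conjugating enzyme that limits uptake, read 218, 159 and 150 against 171, 184 and 182 CPM (-0.03; adjusted p = 0.925) and 0.79 higher against IT_LLW (adjusted p = 0.00572). PHO1, the exporter that loads phosphate into the xylem, was the single member called lower, at 4.99, 7 and 6.72 against 8.81, 15.8 and 17.8 CPM (-1.18 ± 0.38; adjusted p = 0.0132), which ended without SW_HLC replicate 1 or SW_LLW replicate 3 and was 0.30 against IT_LLW (adjusted p = 0.559). In IT_HLC against IT_LLW 19 members rose and 0 fell, with a median of 1.65, but without IT_HLC replicate 3 the counts were 14 and 1 of 28 tested and the median 0.71. The phosphate content of the plants was not measured in these files.

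**Figure D3:**
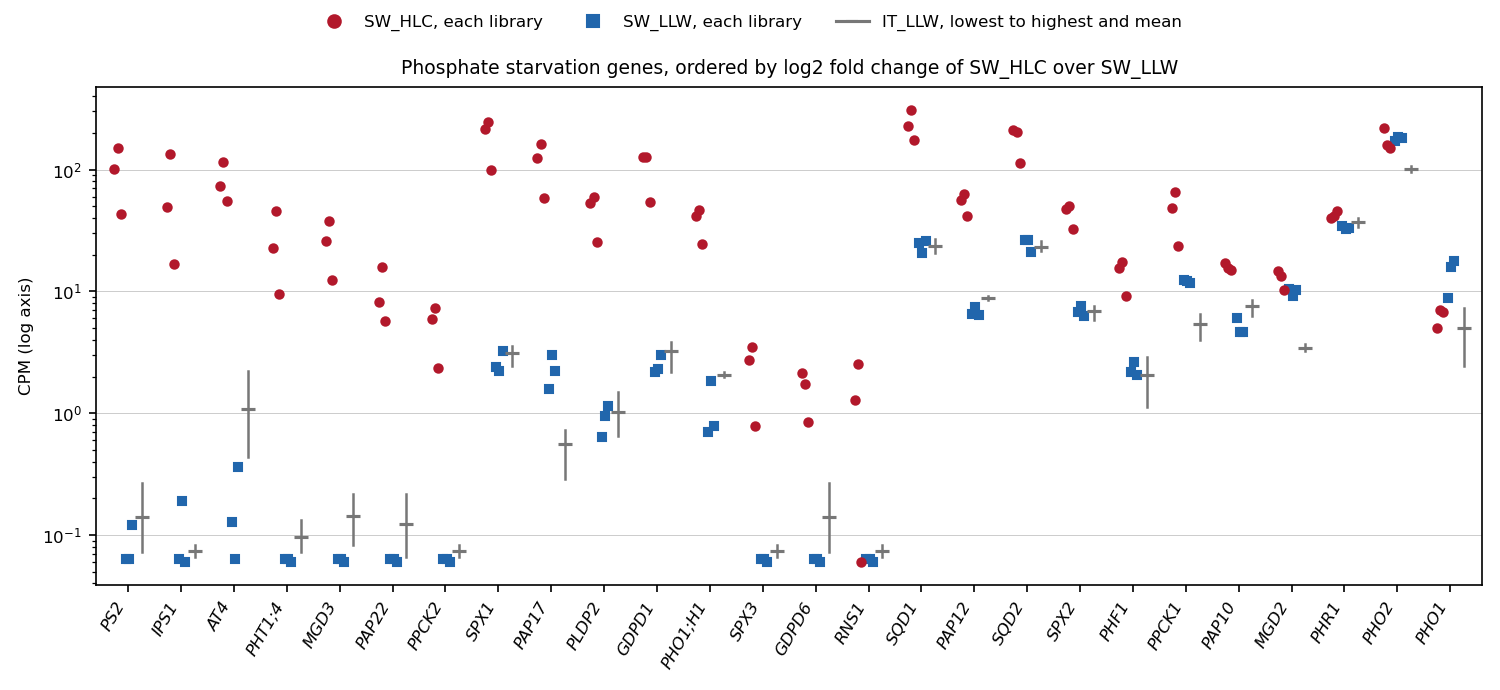
CPM (log axis) of the 26 tested phosphate starvation genes in each SW_HLC library (circles) and SW_LLW library (squares), with the lowest, mean and highest IT_LLW value (grey), ordered by log2 change from PS2 (10.07) to PHO1 (-1.18). The squares and grey lines of most genes lie together near the table minimum or at a few CPM, and the circles above them.

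Of 23 photoprotection genes 14 rose and 2 fell (median 0.84), and 13 rose and 2 fell against IT_LLW. ELIP1, an early light-induced protein that binds pigments, rose from 0.380, 0.763 and 0.360 to 76.1, 188 and 58.1 CPM, a log2 change of 7.73 ± 0.63 (adjusted p = 1.25e-08) that was 7.05 without SW_HLC replicate 2. Its copy ELIP2 rose from 0.0634, 0.127 and 0.0600 to 5.98, 19.6 and 13.1 CPM (7.14 ± 0.84; adjusted p = 1.15e-06). PSBS, the sensor of rapid heat dissipation in photosystem II, rose from 227, 245 and 202 to 566, 772 and 551 CPM (1.49 ± 0.23; adjusted p = 2.40e-05). The groups did not overlap in these 3, as in 62.6% of all genes tested. CHL, a plastid lipocalin of sustained heat dissipation, rose by 3.30 ± 0.26 and LUT1, of lutein synthesis, by 1.25 ± 0.16. PGR5, of cyclic electron flow, fell from 104, 101 and 93.5 to 67.7, 64.0 and 63.1 CPM (-0.62 ± 0.14; adjusted p = 0.00123). Of 18 antioxidant genes 5 rose and 1 fell (median 0.40), and 9 rose and 3 fell against IT_LLW; the tocopherol cyclase gene VTE1 rose from 4.94, 4.33 and 3.00 to 18.3, 17.0 and 20.3 CPM (2.18 ± 0.26; adjusted p = 1.07e-06), and VTC2, the committed enzyme of ascorbate synthesis, fell by 0.67 ± 0.16, with a value of -0.19 against IT_LLW (adjusted p = 0.354).

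The photosynthetic apparatus itself mostly missed the threshold within the SW label. Of 21 light-harvesting antenna genes 3 rose and 0 fell (median 0.11), and of 32 photosystem and electron transport genes 4 rose and 0 fell (median 0.30), beside 24.8% and 25.5% of all genes. Summed CPM of the antenna list ran from 20700 to 22900 in SW_HLC and from 23100 to 25600 in SW_LLW. For the photosystem list the sums went the other way, at 13700 to 15600 and 11700 to 12200. LHCB4.3, an antenna isoform also called LHCB8 that is known from strong light, was the large exception and rose from 15.6, 18.1 and 10.6 to 91.3, 190 and 143 CPM (3.26 ± 0.40; adjusted p = 1.87e-06). LHCB1.3, a major antenna copy whose reads may mix with its relatives, read 4290, 4260 and 4330 against 5740, 5790 and 6730 CPM (-0.50; adjusted p = 0.163, but 0.0152 when the 6 libraries were fitted alone). LHCB2.2 narrowly missed the threshold, with a log2 change of 0.85 (adjusted p = 0.0534). It was called with the 6 libraries fitted alone (adjusted p = 0.000314), with DESeq2, with RLE scaling and without IT_HLC replicate 3. The leaf forms of ferredoxin and its reductase, FD2 and FNR2, rose by 1.18 ± 0.33 and 1.41 ± 0.29 (adjusted p = 0.00612 and 0.000431).

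With IT_LLW as the reference the same SW_HLC libraries gave another picture for these lists. Antenna genes were then 2 higher and 12 lower (median -0.98) and photosystem genes 2 higher and 11 lower (median -0.48). Within the IT label, HLC against LLW, they were 1 higher and 17 lower (median -1.78) and 0 higher and 24 lower (median -1.27), beside 28.6% and 26% of all genes there, 54.7% in all (27.5%, 24.8% and 52.3% without IT_HLC replicate 3). The difference between labels in the effect of the regime was tested directly: it was called in 37.1% of all genes, 18.7% higher and 18.4% lower in SW (38.5%, 19.5% and 19% without IT_HLC replicate 3). For antenna genes 20 of 21 and for photosystem genes 29 of 32 had a higher change in SW than in IT, and 0 a lower one. Without IT_HLC replicate 3 these counts were 20 and 30, and 17 antenna and 25 photosystem genes fell within IT. LHCB1.3 read 8220 to 9980 CPM in IT_LLW, above all SW_LLW libraries, and fell by 1.12 against it (adjusted p = 0.00417).

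Of 22 Calvin-Benson cycle genes 10 rose and 0 fell (median 0.50), and 7 rose and 2 fell against IT_LLW. The transketolase TKL1 rose from 246, 252 and 242 to 715, 968 and 785 CPM (1.74 ± 0.19; adjusted p = 4.07e-07). SBPASE, which commits carbon to regeneration of the acceptor, rose from 261, 272 and 198 to 475, 618 and 458 CPM (1.08 ± 0.24; adjusted p = 0.000992), and the regulator CP12-2 by 1.52 ± 0.23. RBCS1A, a Rubisco small subunit with near-identical copies, read 3620, 5300 and 4290 against 3290, 3590 and 3670 CPM and its groups overlapped (0.32; adjusted p = 0.332). Of the plastid genome's own transcripts 11 of 128 were higher and 18 lower (median -0.13), and 1 higher and 53 lower against IT_LLW (median -0.48). Leaving out 1 library moved the counts within SW. The lower count was 8 without SW_HLC replicate 1 or SW_LLW replicate 1, 9 without SW_HLC replicate 2 and 11 without SW_LLW replicate 3. The higher count was 5 without SW_HLC replicate 3 or SW_LLW replicate 2 and 7 without SW_LLW replicate 3. Of 100 mitochondrial transcripts 14 were higher and 35 lower (median -0.23), and 9 higher and 19 lower against IT_LLW. Within SW, leaving out 1 library gave 10 to 15 higher and 28 to 32 lower.

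Genes that respond to darkness and sugar starvation gave 6 higher and 4 lower of 19 (median 0.30), near the background. ASN1, the dark-induced asparagine synthetase, fell from 4.82, 1.46 and 4.86 to 0.232, 0.369 and 0.121 CPM (-3.91 ± 1.02; adjusted p = 0.00353). BCAT2, a branched-chain aminotransferase, rose by 3.59 ± 0.54 and the glutamate dehydrogenase GDH1 fell by 1.60 ± 0.22. Against IT_LLW, 2 were higher and 16 lower (median -1.90), and ASN1, at 21.0 to 89.3 CPM in IT_LLW, fell by 7.76. The regime's effect was higher in SW than in IT for 12 of these genes and lower for 1, with and without IT_HLC replicate 3. Ribosome biogenesis went the other way round: 0 of 11 rose and 5 fell against SW_LLW (median -0.42; 2 fell without SW_HLC replicate 1 or 3 or SW_LLW replicate 1, and 3 without SW_LLW replicate 3), whereas 5 rose and 2 fell against IT_LLW (median 0.58). FIB1, a nucleolar fibrillarin, read 11.5, 16.2 and 12.2 against 33.5, 34.1 and 34.5 CPM (-1.36 ± 0.21; adjusted p = 1.82e-05).

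**Figure D4:**
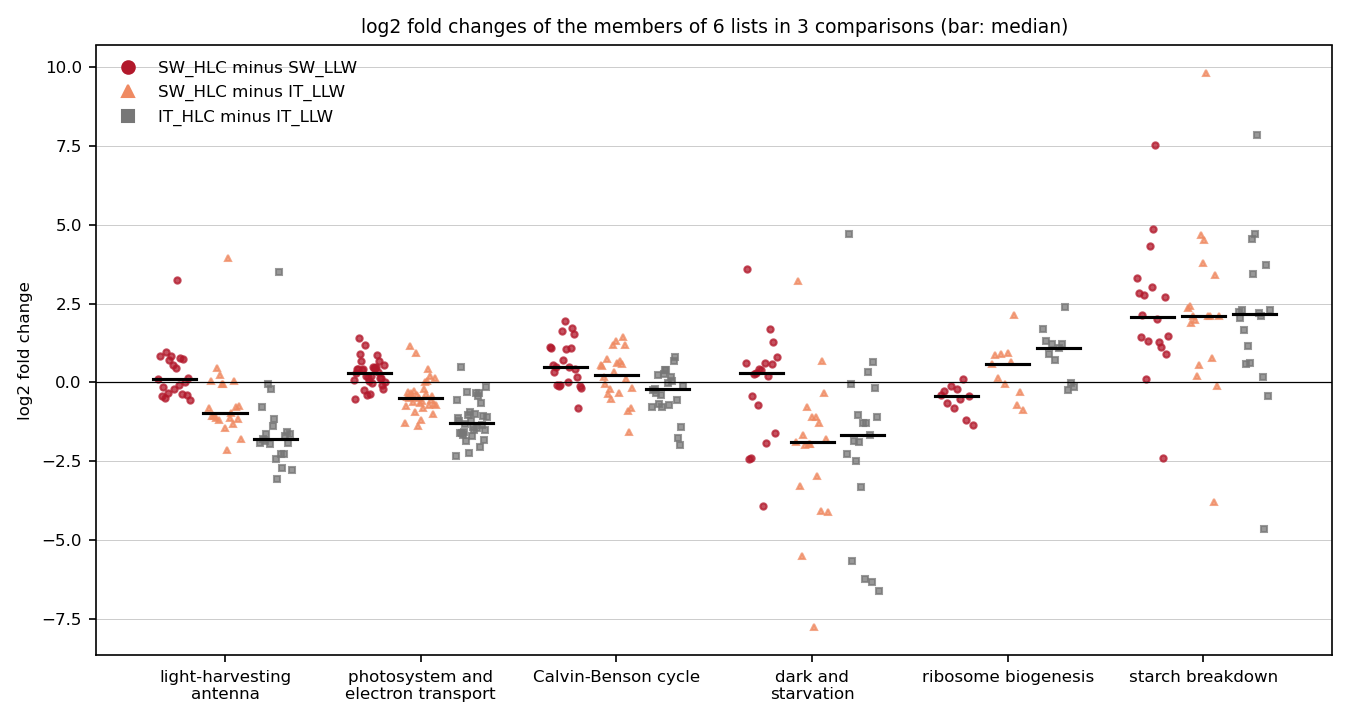
log2 changes of the tested members of 6 lists (points) and their medians (bars) in SW_HLC minus SW_LLW, SW_HLC minus IT_LLW and IT_HLC minus IT_LLW. Starch breakdown has similar medians of 2.08, 2.11 and 2.16, whereas the antenna medians are 0.11, -0.98 and -1.78 (the IT medians are 2.13 and -1.87 without IT_HLC replicate 3, which is drawn); the first pair of comparisons shares the SW_HLC libraries and the second pair the IT_LLW libraries.

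Genes of shade avoidance and warmth-induced growth fell together. Of 13 tested members 11 were lower and 1 higher (median -2.45), and 10 lower and 1 higher against IT_LLW (median -2.49). PKS4, a phytochrome-binding protein of bending growth, fell from 42.2, 37.4 and 28.6 to 2.55, 2.15 and 3.09 CPM, a log2 change of -3.79 ± 0.39 (adjusted p = 1.95e-07). IAA29, an auxin-response repressor induced by PIF factors, read 5.96, 7.83 and 3.30 CPM in SW_LLW and was at the minimum in SW_HLC, at least 31.6-fold lower (adjusted p = 8.97e-08). HFR1, a brake on PIF factors, was at least 17.6-fold lower, from 1.84, 4.52 and 3.12 CPM. PKS4 varied little among the SW_HLC libraries, whereas IAA29 and HFR1 were at the table minimum there and could not differ. ATHB2, a shade-induced homeodomain factor, fell by 2.93 ± 0.32. The member called higher was PIF7, a shade-signalling factor, at 8.36, 10.8 and 8.77 against 5.71, 3.24 and 3.06 CPM (1.22 ± 0.27; adjusted p = 0.000886).

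Among cell wall genes of growth, more were lower than higher. Of 28 primary wall and expansion genes 13 fell and 3 rose (median -0.67), and 15 fell and 3 rose against IT_LLW. EXO, a brassinosteroid-regulated growth protein, fell from 19.7, 25.1 and 30.5 to 0.464, 0.553 and 0.847 CPM (-5.32 ± 0.50; adjusted p = 6.95e-08). SKU5, a wall-anchored oxidase-like protein of directional growth, fell from 107, 82.6 and 94 to 6.73, 6.82 and 9.32 CPM (-3.63 ± 0.41; adjusted p = 7.06e-07), and FLA9, a fasciclin-like arabinogalactan protein, by 3.44 ± 0.45. PME3, a pectin methylesterase, rose from 155, 177 and 136 to 362, 382 and 439 CPM (1.34 ± 0.18; adjusted p = 5.39e-06). Of 14 gibberellin genes 3 rose and 5 fell (median -0.28), and 4 rose and 4 fell against IT_LLW (median 0.41); 3 fell without SW_HLC replicate 2 or 3 or SW_LLW replicate 2 or 3. The DELLA repressors RGA and RGL1 fell by 1.13 ± 0.13 and 2.65 ± 0.46, and the receptor GID1A rose by 1.42 ± 0.17.

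Water channels were lower in most members: 10 of 15 fell and 1 rose (median -1.72), and 13 fell and 0 rose against IT_LLW (median -1.89). PIP1;2, a plasma membrane channel, fell from 372, 405 and 263 to 124, 168 and 98.6 CPM (-1.41 ± 0.21; adjusted p = 1.40e-05). TIP1;2 of the vacuole membrane fell from 595, 573 and 652 to 193, 199 and 156 CPM (-1.73 ± 0.54; adjusted p = 0.0122), a call lost when the LLW and HLC libraries were fitted alone (adjusted p = 0.0594). PIP2;3, which shares reads with PIP2;2, fell by 2.53 ± 0.29. The member that rose, TIP2;2, read 7.31, 7.62 and 4.66 against 3.80, 4.52 and 3.72 CPM (0.70 ± 0.22; adjusted p = 0.0109); the call ended without SW_HLC replicate 2, and against IT_LLW it fell by 1.63. PIP2;8 fell by 5.29 ± 0.71, from 3.36, 2.99 and 4.02 CPM to at most 0.123, but was 0.0723 to 0.496 CPM in IT_LLW and not called against it (-1.89; adjusted p = 0.118).

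Jasmonate genes rose in part, 8 of 16 with 1 lower (median 2.08), and 10 with 1 lower against IT_LLW (median 2.50). LOX2, the lipoxygenase at the head of leaf jasmonate synthesis, rose from 163, 319 and 152 to 2680, 2110 and 3630 CPM (3.73 ± 0.55; adjusted p = 1.58e-05). AOC2, an allene oxide cyclase of the same route, rose from 8.94, 7.38 and 6 to 181, 261 and 247 CPM (4.95 ± 0.45; adjusted p = 5.09e-08). The output genes CORI3 and VSP1 rose by 5.89 ± 0.70 and 6.78 ± 0.98, VSP1 from 0.127, 0.127 and 0.420 to 36.8, 14.3 and 26.9 CPM (7.59 without SW_LLW replicate 3). Synthesis and output genes were thus both raised, while the receptor gene COI1 fell by 0.50 ± 0.13 (adjusted p = 0.00362).

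In the salicylic acid list 7 of 20 rose and 1 fell (median 0.63), and 8 rose and 1 fell against IT_LLW. PR1, the usual output marker, read 116, 391 and 447 CPM in SW_HLC and 3.80, 70.2 and 21.6 in SW_LLW (3.32 ± 0.89; adjusted p = 0.00455). Its spread was wide in both groups: the change was 4.65 without SW_LLW replicate 2, and the adjusted p was 0.0794 when the 6 libraries were fitted alone. NPR3 and NPR4, receptors of salicylic acid, rose by 1.88 ± 0.29 and 1.2 ± 0.24 (against IT_LLW the NPR3 call was lost, at 0.33 with adjusted p = 0.36), and ACD6, an ankyrin protein that promotes defence, by 1.66 ± 0.36. CBP60G, an activator of salicylic acid synthesis, fell from 19.3, 29.5 and 24.5 to 5.51, 5.59 and 3.57 CPM (-2.32 ± 0.50; adjusted p = 0.000711).

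Immune receptor genes changed in both directions, 5 of 19 higher and 8 lower (median -0.34); against IT_LLW 4 were higher and 1 lower (median -0.12). RPP5 read 13.2, 10.5 and 11.7 CPM in SW_HLC, 102, 109 and 96.7 in SW_LLW and 12.7 to 14.7 in IT_LLW. The neighbouring genes RPP4 and SNC1 fell by 1.44 ± 0.16 and 1.54 ± 0.17 but rose by 0.49 each against IT_LLW (adjusted p = 0.0154 and 0.0207). These 3 lie in 1 cluster of near-identical genes, so their reads may be exchanged. ZAR1, a receptor that forms a membrane pore when active, rose under both references, by 1.48 ± 0.22 and 0.73.

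Of 24 glucosinolate genes 5 rose and 6 fell (median -0.13), and 6 rose and 3 fell against IT_LLW (median 0.49). Each leave-out gave fewer calls, 2 to 4 higher with the lowest count without SW_HLC replicate 2 or SW_LLW replicate 2, and 3 to 5 lower with the lowest count without SW_LLW replicate 3. MAM1, a chain-elongation enzyme, rose from 25.3, 18.5 and 20.8 to 73.7, 168 and 92.8 CPM (2.37 ± 0.62; adjusted p = 0.00358), with a value of 1.15 against IT_LLW (adjusted p = 0.120). CYP79B3, of indole glucosinolate synthesis, fell from 30.3, 28.6 and 39.8 to 4.64, 6.39 and 8.89 CPM (-2.31 ± 0.45; adjusted p = 0.000265) and its regulator MYB34 by 2.97 ± 0.51 (3.77 without SW_HLC replicate 1). In the flavonoid list 14 of 25 members passed the filter, and 8 were higher and 1 lower (median 0.98). Leaving out 1 library gave 6 to 8 higher, and against IT_LLW 6 were higher and 1 lower (median 0.41). Of the 25, 9 were at the minimum throughout SW_LLW and 2 throughout SW_HLC. A member at the minimum in SW_LLW could pass the filter only through other groups, which favours higher calls. FLS1, which makes flavonols, and TT19, which carries anthocyanin to the vacuole, were at the minimum in SW_LLW and at least 11.3-fold and 12.1-fold higher in SW_HLC, at 1.04, 3.44 and 1.88 CPM and 2.26, 4.05 and 0.484 CPM; the TT19 bound was 7.33-fold without SW_HLC replicate 2. F3H, a shared early step, rose by 1.82 ± 0.29, and C4H, an enzyme of the general phenylpropanoid route, fell by 0.79 ± 0.14, with a value of -0.01 against IT_LLW (adjusted p = 0.971).

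Flowering genes were divided, 5 of 15 higher and 5 lower. SOC1, a floral integrator, rose from 0.697, 0.318 and 0.660 to 39.7, 33.5 and 22.3 CPM (5.81 ± 0.52; adjusted p = 4.09e-08). FLC, the repressor that winter cold silences, fell from 64.9, 73.3 and 70.0 to 6.85, 10.2 and 13.2 CPM (-2.78 ± 0.61; adjusted p = 0.000913). VIN3, which starts the silencing of FLC in cold, rose from 0.0634, 0.191 and 0.0600 to 0.928, 0.799 and 1.51 CPM (3.28 ± 0.52; adjusted p = 3.24e-05; 3.96 without SW_LLW replicate 2). The values of SOC1 and FLC depended on the reference: IT_LLW held 9.69 to 25.4 CPM of SOC1 and 1.90 to 30.9 CPM of FLC, and the changes were 1.06 (adjusted p = 0.0255) and -0.99 (adjusted p = 0.186), while VIN3 rose by 2.60 (adjusted p = 0.000263). MAF3 and MAF1, FLC relatives, fell by 1.42 ± 0.16 and 0.97 ± 0.19, and MAF1 was at -0.06 against IT_LLW (adjusted p = 0.846).

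Of 7 tested heat shock genes 0 rose and 4 fell (median -1.01), with the same counts against IT_LLW. HSFA7A, a heat stress factor, fell from 2.03, 1.85 and 0.960 to 0.174, 0.0614 and 0.121 CPM (-3.66 ± 0.55; adjusted p = 1.78e-05). Of 6 senescence genes 1 rose and 3 fell (median -0.97; 1 fell without SW_HLC replicate 2 or 3 or SW_LLW replicate 2), while 2 rose and 1 fell against IT_LLW (median 0.35). WRKY53, a regulator of its onset, fell from 7.61, 7.63 and 6.72 to 1.22, 0.369 and 0.182 CPM (-3.60 ± 0.58; adjusted p = 4.03e-05), and by 4.69 without SW_HLC replicate 1. Among the epidermis markers CER1, of wax alkane synthesis, rose from 0.127, 0.700 and 2.58 to 21.4, 25.2 and 23.6 CPM (4.33 ± 0.67; adjusted p = 2.66e-05; 5.80 without SW_LLW replicate 3). Among the xylem markers the protease XCP2 fell by 2.40 ± 0.49 and the cellulose synthase CESA4 by 1.2 ± 0.31.

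Presence and absence calls depended on the reference as well. In all, 134 genes were on in every SW_HLC library and at the minimum in every SW_LLW library, and 141 the reverse. Of the 134, 65 were also on in IT_LLW, 28 were at the minimum there and 41 were neither. Of the 141, 18 were on in IT_LLW, 85 at the minimum and 38 neither.

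The comparison within the IT label, which shares no library with the one within SW, gave partly matching calls. Higher in both were 2163 genes, 49.3% of the SW calls and 42.7% of the IT calls, and 2057 were lower in both (45.5% and 44.6%). Opposite calls were made for 648 genes higher in SW and lower in IT (14.8% and 14.1%) and for 824 lower in SW and higher in IT (18.2% and 16.3%). Without IT_HLC replicate 3 the 4 counts were 1998, 1913, 773 and 889. The mean over both labels called 9881 genes, 55.8% of those tested, 28.5% higher and 27.3% lower (9763 genes, 53.8%, 27.3% and 26.5% without IT_HLC replicate 3). The transcript pattern also runs in opposite directions in the 2 labels, so that a difference between labels and a difference between patterns cannot be told apart.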

How the data were processed

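Whole-number counts per gene were deposited by the authors for 24 libraries, 3 in each of 8 groups; the counts are not normalized and no replicates were pooled. Per the submitters' processing notes, the tools were HISAT, StringTie and DESeq2, with TAIR10 as the build. What each tool did, its version and whether strand was used in counting: not given in the sources used here. The table minimum is 1 and no cell holds 0. Columns were matched to titles by the library codes in the labels. Symbols came from RefSeq's TAIR10.1 gene table (28932 of 33610 identifiers matched); promoters came from that assembly, and no coordinates are given because it is not the authors' build. Near-identical genes can share reads.

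edgeR 4.0.16 (R 4.3.3, limma 3.58.1) was used with TMM scaling, filterByExpr (minimum count 10, total 15), robust glmQLFit on all 8 groups, 1 contrast per comparison, Benjamini-Hochberg adjustment and a threshold of 0.05. CPM values are TMM-scaled. The approximate SE after ± is the size of the log2 change divided by the square root of the test's F statistic. It is therefore no measure of precision separate from the p-value. For a gene at the minimum throughout a group, the fold is a bound against 3 counts per library; such bounds cover counting error only. The procedure was also run on simulated counts in which few genes changed. That setting does not cover a change as broad as the one described here. Members, lists and rules were chosen with earlier results of these data known; the phosphate list was drawn up after its values were seen, and 10 list members without a name in the table were left out. Genes were named by rule. The 12 largest risen and fallen came from called nuclear genes with a symbol and a mean log2 CPM of at least 3. Their groups had to be without overlap in CPM. Up to 4 members per list were taken by adjusted p, with the strongest in the minority direction. Added were 10 fixed genes, 5 each way for the difference between labels and 5 most counted each way. The text prints most of them, and list members outside the rule were chosen after their values were seen. Alternatives were RLE and upper-quartile scaling, no filter, DESeq2 1.42.0, fewer libraries, 1 subtracted, organelle genes removed, a replicate block, leaving out each library, a fold threshold and IT_LLW as reference. List and background counts without IT_HLC replicate 3, and bounds without single libraries, were added after the data were seen.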

Additional observations from a re-analysis of the deposited data

Results flagged for a closer look

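Each gene here was picked because the effect of the regime differed between the SW and IT labels by a test of the difference itself (edgeR's quasi-likelihood test, adjusted p below 0.05), the 5 of smallest adjusted p in each direction. Differences are log2 change in SW minus log2 change in IT. They were -14.03 for QQS, -9.20 for CNGC11, a cyclic nucleotide-gated channel, -7.27 for the glycerophosphodiesterase gene GDPD4, -6.41 for RPP5 and -5.50 for ATB2. In the other direction they were 7.72 for AGL77, a MADS-box gene, 7.24 for the homeobox gene HB22, 6.93 for the immune receptor WRR4, 2.81 for the sugar transporter ERDL6 and 2.73 for P5CR. Of these, GDPD4 read 1.91, 1.54 and 0.968 CPM in SW_HLC, 36.9, 32.8 and 35.9 in SW_LLW and 1.59 to 2.89 in IT_LLW. AGL77 was at the minimum in SW_LLW, read 1.04, 0.921 and 1.33 CPM in SW_HLC and 1.16 to 2.05 in IT_LLW. All 10 differences kept their sign and their call without IT_HLC replicate 3, where they ran from -14.32 for QQS to 8.82 for AGL77. Label and transcript pattern cannot be told apart in these differences.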

How the results depend on the processing

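Counts of called genes, 8912 with 4388 higher and 4524 lower, moved by over 1.5 times under 1 alternative: against a fold change of 2 with glmTreat, 2504 genes were called, 1271 higher and 1233 lower. Leaving out 1 SW library gave 7760 to 8195 called genes, 3824 to 4080 higher and 3936 to 4133 lower, and 5868 to 6133 for the difference between labels (6566 with all). Upper-quartile scaling shifted the median of all genes to -0.109 (TMM -0.023) and gave 3860 higher and 5104 lower. DESeq2 called 8675 genes. With the replicate block 8747 were called, and 6363 for the difference; deviations of same-numbered libraries correlated at -0.007, 0.044 and 0.077, so the numbers were not taken as pairs. Fitting the 6 libraries alone called 9349. Without IT_HLC replicate 3, 9083 genes were called, and 6979 for the difference. With IT_LLW as the reference 19 of 210 genes turned sign with a call under at least 1 reference. Some of the 210 had been picked for a difference between labels. Called against IT_LLW were CBF5 0.65, CNGC11 1.77, ERDL6 -1.69, P5CR -0.34, PHO2 0.79, RPP4 0.49, SNC1 0.49, TIP2;2 -1.63 and WRR4 -3.44. Of these, ERDL6 and PHO2 were not called against SW_LLW. Not called against IT_LLW were AGL77 -0.55, CSA1 -0.48, CYP705A19 0.54, DAR4 -0.42, HB22 -0.67, MYB28 0.61, PETE2 -0.33, PHO1 0.30, PP2-A1 -0.20 and SAG13 2.1. The cause of the turned signs was not tested. In the leave-outs, counts of risen cold effectors (14), evening clock genes (8) and starch breakdown genes (16) did not move, and fallen shade genes stayed at 11. The groups have 3 libraries each, which limits precision for genes of low count such as the CBF genes.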

Other observations

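Genes outside the lists that were on in all SW_HLC libraries and at the table minimum in all SW_LLW libraries, chosen after their values were seen, included PYD4, named for pyrimidine breakdown, at a mean of 53.5 CPM in SW_HLC and 0.214 in IT_LLW. CSLA01, a cellulose synthase-like gene, averaged 16.4 CPM in SW_HLC and was at the minimum in both LLW groups. The defensin gene PDF1.2c averaged 27.5 CPM in SW_HLC and 0.192 in IT_LLW. GPX7, a glutathione peroxidase-like gene, averaged 15.8 CPM in SW_HLC and 2.65 in IT_LLW.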
